A study of Rattus norvegicus with 30 samples.

Results

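Angptl4, Fgf21, Igfbp1 and Gdf15 encode proteins that the liver secretes and that act on metabolism at a distance, and Lpl encodes lipoprotein lipase, the enzyme that the Angptl4 protein inhibits. The cells were primary rat hepatocytes in culture, and the exposure was to the plasticiser diisononyl phthalate (DINP). Every probe set (a group of short probes read as 1 value) that the platform annotation pairs with 1 of these symbols was taken. That gave 5 probe sets, 1 for each gene, of 31042 on the array after removal of controls. All 5 were bright enough to be tested, among 18625 tested probe sets that stood for 10604 named genes.

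The cells were frozen primary hepatocytes of male Sprague Dawley rats, bought from a supplier, plated on collagen, overlaid with Matrigel and dosed on day 3 of culture. The 30 samples form 6 groups of 5 wells: vehicle (1% DMSO), DINP 25 mM and DINP 100 mM, each harvested 24 h or 48 h after dosing, with all DINP wells also given the DMSO. Doses carry the labels' unit, mM, for which no independent check was at hand. No source used here names the donor animals, so p-values measure the spread between wells, not between animals.

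In fasting, fatty acids released from fat activate the nuclear receptor PPAR alpha in liver, and metabolites of phthalates are known to activate the same receptor in rodents. Angptl4 and Fgf21 are known PPAR alpha targets. Fgf21 and Gdf15 are also known targets of ATF4, the transcription factor of the amino acid and unfolded protein stress responses, and Igfbp1 is known to be switched off by insulin through the forkhead factor FOXO1.

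The signals are linear array intensities as deposited. Array medians ran from 346 to 426. Of 10 hepatocyte markers 9 had a named probe set and all 9 were bright enough to test (Tf was not analysed here). Most markers of other cells were bright enough to test as well: 7 of 10 of macrophages, 6 of 10 of stellate cells, 4 of 7 of endothelium, 2 of 5 of bile duct and 4 of 6 of fat. Below the dimmest tested mean were Cd163, Ptprc and Adgre1 of macrophages, Col1a2, Pdgfrb, Lrat and Lum of stellate cells, Pecam1, Vwf and Tek of endothelium, Krt7, Spp1 and Cftr of bile duct, and Adipoq and Lep of fat. Vehicle 48 h replicate 1 stood apart from its group: 169 probe sets lay more than 1 log2 unit beyond the other 4 arrays, against 70 to 147 on any other array. Its estimated array weight was 0.52, where the lowest of the other 29 was 0.67. Member results that rest on it are given with and without it, and list counts where stated.

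Angptl4 rose in every DINP group, to between 2.74 and 3.3 times the vehicle. The protein is secreted in fasting and unfolds lipoprotein lipase, which keeps blood triglycerides out of tissues. At 24 h its signal was 7064, 7094, 6676, 5595 and 6592 on the vehicle arrays. It was 19238, 22910, 21246, 25138 and 20841 at 25 mM, and 23757, 20591, 21096, 21671 and 21916 at 100 mM. All 10 DINP arrays were above all 5 vehicle arrays, and the ranges of the doses overlapped.

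At 48 h the vehicle arrays read 10408, 6954, 8499, 8028 and 6870 for Angptl4. The 25 mM arrays read 24550, 20989, 22020, 21833 and 21450, and the 100 mM arrays 21446, 24978, 22677, 23324 and 20875. Again no DINP array overlapped the vehicle, although vehicle replicate 1, at 10408, was the highest vehicle array of either time. The plot of single arrays shows the separation of the DINP groups for this gene and its absence for Fgf21, Gdf15 and Lpl.

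**Figure D1:**
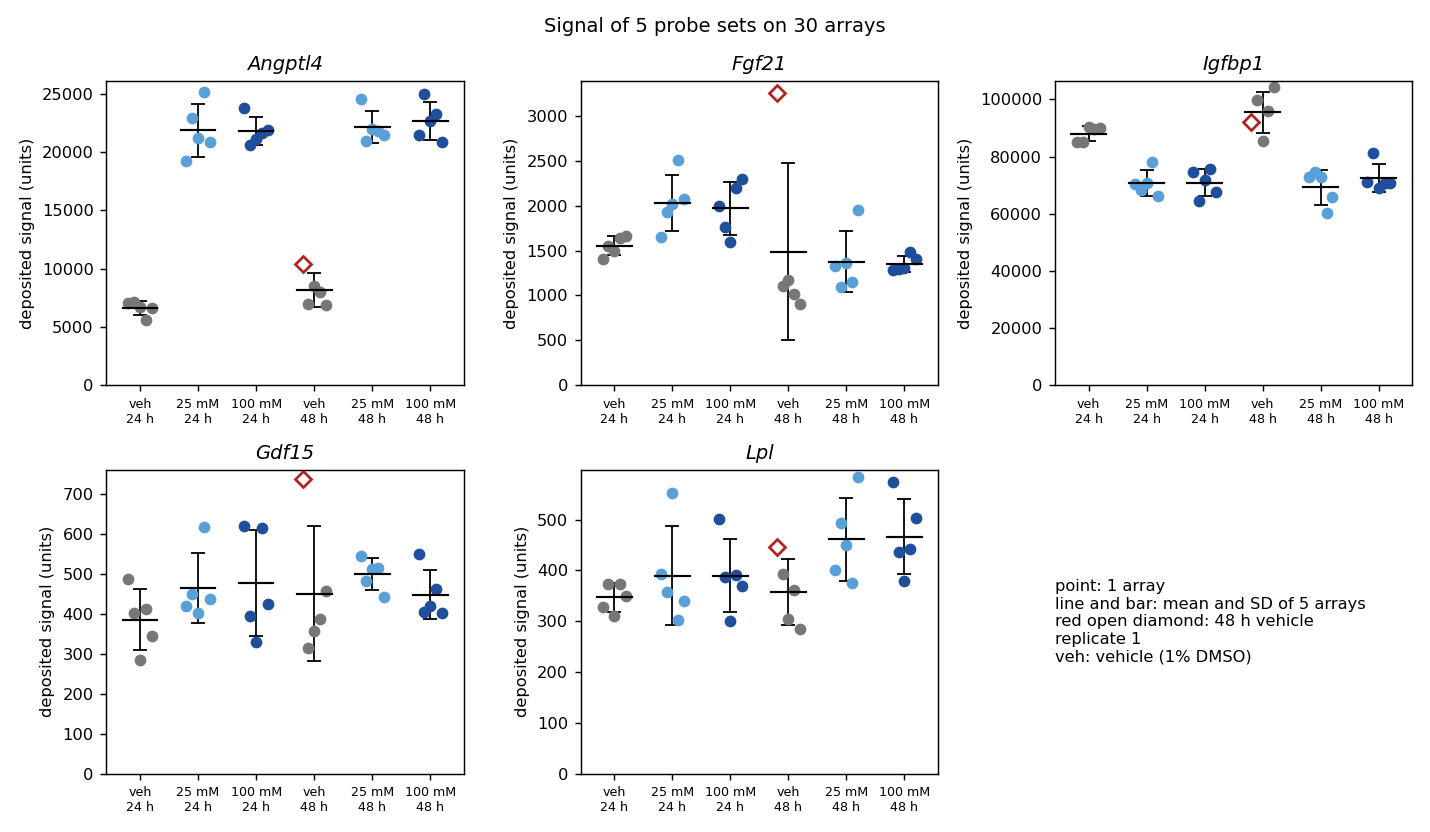
Deposited signal (vertical axes, starting at 0, in units of the deposited intensity) of the 5 probe sets in the 6 groups (horizontal axes). Each point is 1 array, the line and bar are the mean and SD of 5 arrays, and the red open diamond is vehicle 48 h replicate 1, which reads 3256 for Fgf21 where the other 4 vehicle arrays read 902 to 1172.

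Differences were tested with limma on log2(signal + 16) in 1 fit of all 6 groups, with p-values adjusted over all tested probe sets, and are called where the adjusted p is under 0.05. Errors after ± beside a log2 difference are standard errors, with 5 arrays a group. Fewer cells and less RNA per cell cannot be told apart in such bulk samples. At 24 h Angptl4 was higher by 1.72 ± 0.09 at 25 mM (3.3-fold, adjusted p = 1.4e-16) and by 1.72 ± 0.09 at 100 mM (3.3-fold, adjusted p = 1.73e-16). At 48 h it was higher by 1.46 ± 0.09 at 25 mM (2.74-fold, adjusted p = 9.17e-15) and by 1.49 ± 0.09 at 100 mM (2.8-fold, adjusted p = 5.5e-15). With vehicle 48 h replicate 1 left out the 48 h differences were 1.55 ± 0.08 and 1.58 ± 0.08.

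The members called against the vehicle were the same in all 4 comparisons: Angptl4 was higher, Igfbp1 was lower, and the other 3 of 5 did not pass. Over all tested probe sets the percentage called was 13.3% at 25 mM and 12.3% at 100 mM at 24 h, and 17.9% and 14.6% at 48 h. The plot of differences gives all 20 values with their intervals.

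**Figure D2:**
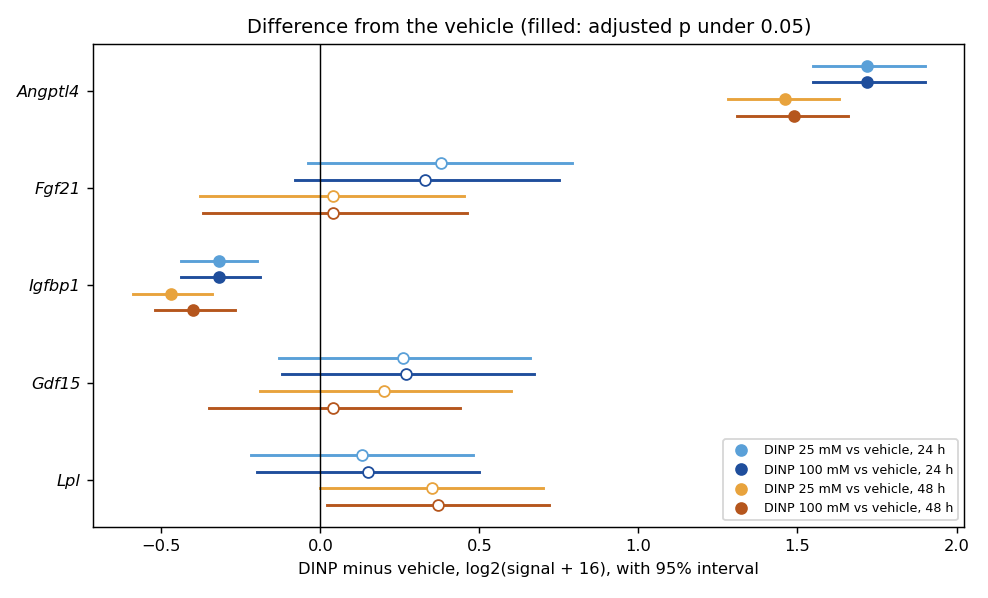
Difference of each DINP group from the vehicle of its time on the log2(signal + 16) scale (horizontal axis) for the 5 genes (vertical axis), with limma's 95% intervals; filled points have an adjusted p under 0.05. Angptl4 lies between 1.46 and 1.72 and Igfbp1 between -0.47 and -0.32, and the intervals of Fgf21 and Gdf15 include 0.

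For Angptl4 neither the difference between doses nor the difference of effects between times was called. At 24 h the doses differed by 0.00 ± 0.09 (95% interval -0.17 to 0.17), and at 48 h 100 mM was above 25 mM by 0.03 ± 0.09 (interval -0.14 to 0.20). No member was called between doses, where 0.0107% of probe sets were called at 24 h and 0.00537% at 48 h. The effect at 48 h minus that at 24 h was -0.27 ± 0.12 at 25 mM (interval -0.51 to -0.02, adjusted p = 0.559) and -0.24 ± 0.12 at 100 mM (interval -0.48 to 0.01, adjusted p = 0.816). Leaving out vehicle 48 h replicate 1 gave -0.18 ± 0.10 and -0.14 ± 0.10 instead. None of the 5 members was called for such a difference of effects, for which the share over all probe sets was 0.242% at 25 mM and 0.0644% at 100 mM.

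In the vehicle, Angptl4 was higher at 48 h than at 24 h by 0.29 ± 0.09 (adjusted p = 0.0179), the only member called of 5, beside 14.4% of all probe sets. Vehicle arrays of the 2 times overlapped, with 3 of 5 later arrays above the earlier ones. The call ended without vehicle 48 h replicate 1 (0.20 ± 0.08, adjusted p = 0.0945) and without vehicle 24 h replicate 4 (0.233, adjusted p = 0.0785). Without vehicle 48 h replicate 1 Fgf21 was the member called, as given below, beside 10.9% of all probe sets. From low to high, the groups for Angptl4 ran vehicle 24 h (6604 ± 607, SD), vehicle 48 h (8152 ± 1441), then the 4 DINP groups (21806 to 22660), whose ranges all overlapped.

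The Angptl4 promoter window of RefSeq (assembly GRCr8, minus strand, chr7:15258632-15258931) covers 250 bases before the start that the table gives and 50 after it. That start lies inside the gene's span in the RefSeq gene table, so sequence at the far end of the span was not searched. It was searched on both strands, as were all 33469 promoters of that table, for TATAAA, for AGGNCANAGGNCA (a direct repeat of the PPAR type), for TGATGNAA (the ATF4 type) and for CAAAACA (the forkhead type). Only TATAAA was found in it, 39 to 34 bases before the start, with an overlapping match on the other strand; 14.2% of all promoters hold one. The stretch is shown for the gene with the largest response, chr7:15258682-15258760, with the match in capitals.
Angptl4: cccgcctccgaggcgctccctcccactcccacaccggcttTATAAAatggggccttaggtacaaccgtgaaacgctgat

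Fgf21, a fasting hormone that the liver releases and that acts through FGF receptors with the co-receptor beta-klotho, was not called against the vehicle at any dose or time. Its promoter window holds an ATF4-type match, written here as it reads on the strand of the gene (chr1:105221472-105221559, minus strand, GRCr8), 143 to 136 bases before the start. TGATGNAA on either strand is in 3.98% of all promoters of the table. Such a match is a description of letters, not a shown binding site, and the window holds no AGGNCANAGGNCA.
Fgf21: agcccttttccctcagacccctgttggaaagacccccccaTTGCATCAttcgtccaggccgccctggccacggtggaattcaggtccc

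At 24 h the Fgf21 signal was 1406, 1555, 1500, 1640 and 1667 in the vehicle. It was 1648, 1928, 2018, 2511 and 2078 at 25 mM and 2000, 1762, 1599, 2202 and 2302 at 100 mM. At each dose 4 of 5 arrays lay above every vehicle array and 1 overlapped them. The differences were 0.38 ± 0.20 at 25 mM (1.3-fold, adjusted p = 0.258) and 0.33 ± 0.20 at 100 mM (1.26-fold, adjusted p = 0.335). In a fit of only the compared groups the same differences had adjusted p-values of 0.0238 and 0.0419.

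At 48 h the vehicle arrays read 3256, 1105, 1172, 1018 and 902 for Fgf21. The 25 mM arrays read 1326, 1099, 1361, 1149 and 1952, and the 100 mM arrays 1282, 1298, 1302, 1485 and 1404. Vehicle replicate 1 was the highest of all 30 arrays, 3.1 times the mean of the other 4 (1049 ± 117, SD, n = 4), and every DINP array lay below it. Above the other 4 vehicle arrays lay 3 of 5 arrays at 25 mM and 5 of 5 at 100 mM.

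With all arrays the Fgf21 differences at 48 h were 0.04 ± 0.20 (interval -0.38 to 0.45, adjusted p = 0.938) at 25 mM and 0.04 ± 0.20 (interval -0.37 to 0.46, adjusted p = 0.927) at 100 mM. Once vehicle 48 h replicate 1 was left out they were 0.36 ± 0.13 (1.29-fold, adjusted p = 0.04999) and 0.37 ± 0.13 (1.29-fold, adjusted p = 0.0545). Leaving that array out also lowered the shared error at 24 h: the 25 mM difference of 0.38 ± 0.12 then passed (adjusted p = 0.0368) and the 100 mM difference of 0.33 ± 0.12 did not (adjusted p = 0.0742). So 1 array set whether 2 of the 4 comparisons were called, and the differences without it lay between 0.33 and 0.38 in all 4. Leaving out any of vehicle 48 h replicates 2 to 5, or 25 mM 48 h replicate 5, turned the sign at 25 mM (lowest value -0.095), and vehicle replicates 2, 4 and 5 did so at 100 mM (lowest value -0.0906).

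**Figure D3:**
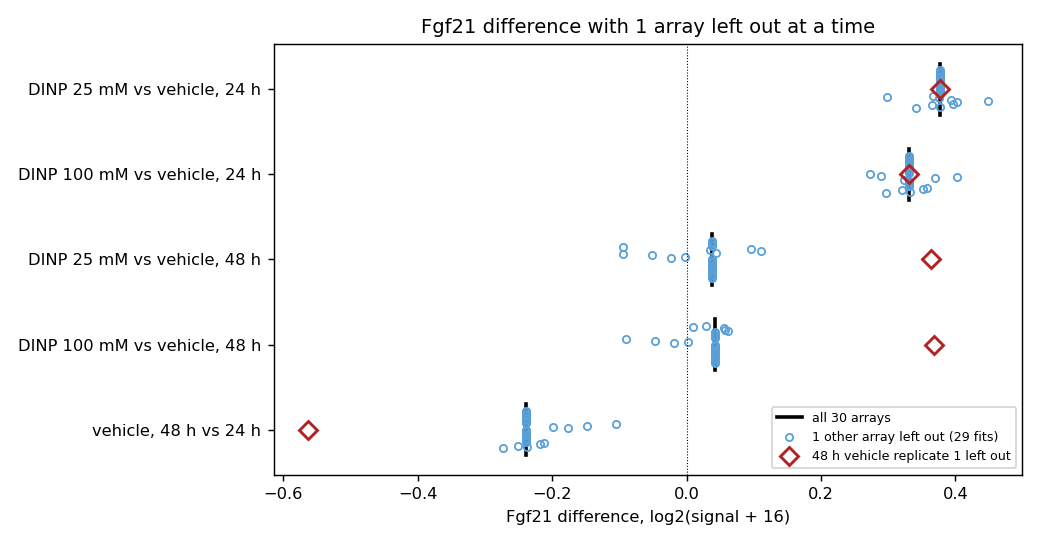
Fgf21 difference on the log2(signal + 16) scale (horizontal axis) in 5 comparisons (vertical axis), with all 30 arrays (black line), with 1 of 29 arrays left out (blue circles, which coincide where the array is in neither group) and with vehicle 48 h replicate 1 left out (red diamond). At 48 h the red diamonds stand at 0.36 and 0.37, apart from all other fits, which lie between -0.10 and 0.11.

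Fgf21 was lower at 48 h than at 24 h in every treatment once that array was set aside. In the vehicle the difference was -0.24 ± 0.20 with it (adjusted p = 0.513) and -0.56 ± 0.13 without it (adjusted p = 0.00409). At 25 mM it was -0.58 ± 0.20 with all arrays (adjusted p = 0.0537) and adjusted p = 0.00124 without that vehicle array. At 25 mM the call was also made without vehicle 48 h replicate 5 (0.0433), 25 mM 24 h replicate 1 (0.0452) or 25 mM 48 h replicate 5 (0.0187). At 100 mM it was -0.53 ± 0.20 (adjusted p = 0.105, and 0.00478 without that vehicle array), and the 5 arrays at 48 h lay below all 5 at 24 h. With all arrays 0 of 5 members were called over time under DINP, beside 14.6% of probe sets at 25 mM and 8.89% at 100 mM.

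From high to low, Fgf21 by mean log2 ran DINP 25 mM 24 h (2036 ± 312, SD), DINP 100 mM 24 h (1973 ± 294), vehicle 24 h (1554 ± 106), then the 48 h groups, at 1354 ± 88 at 100 mM, 1377 ± 340 at 25 mM and 1490 ± 992 in the vehicle. Neighbours in this order overlapped on single arrays. The doses differed by -0.05 ± 0.20 at 24 h (interval -0.46 to 0.37) and by 0.00 ± 0.20 at 48 h (interval -0.41 to 0.42). The effect at 48 h minus that at 24 h was -0.34 ± 0.29 at 25 mM and -0.29 ± 0.29 at 100 mM, and without vehicle 48 h replicate 1 it was -0.01 ± 0.18 and 0.04 ± 0.18.

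The array that read high for Fgf21 also read high for several genes of the ATF4 response, as the plot of that array against its group shows. Of 17 tested genes in a list of ATF4 and p53 stress genes, 11 (64.7%) lay above and 4 (23.5%) below the range of the other 4 vehicle arrays. Over all 10604 genes 26.3% lay above and 23.8% below. Asns, the asparagine synthetase, read 8704 against 4701 to 5018. Chac1, which degrades glutathione, read 5953 against 2608 to 2904.

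Trib3, a pseudokinase that ATF4 induces, read 5332 there against 2899 to 3913, and Atf4 itself 33618 against 23570 to 25764. Ddit3, Ppp1r15a, Eif2ak3 and Cdkn1a lay below the other 4, so the list did not move as a whole. Among the members Gdf15 read 738 against 314 to 459, Angptl4 10408 against 6870 to 8499 and Lpl 445 against 285 to 392, and Igfbp1 lay within the range. Of 22 genes listed as fatty acid oxidation genes of the PPAR alpha type 15 (68.2%) lay above the range. The part of these differences in the Fgf21 value was not tested.

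**Figure D4:**
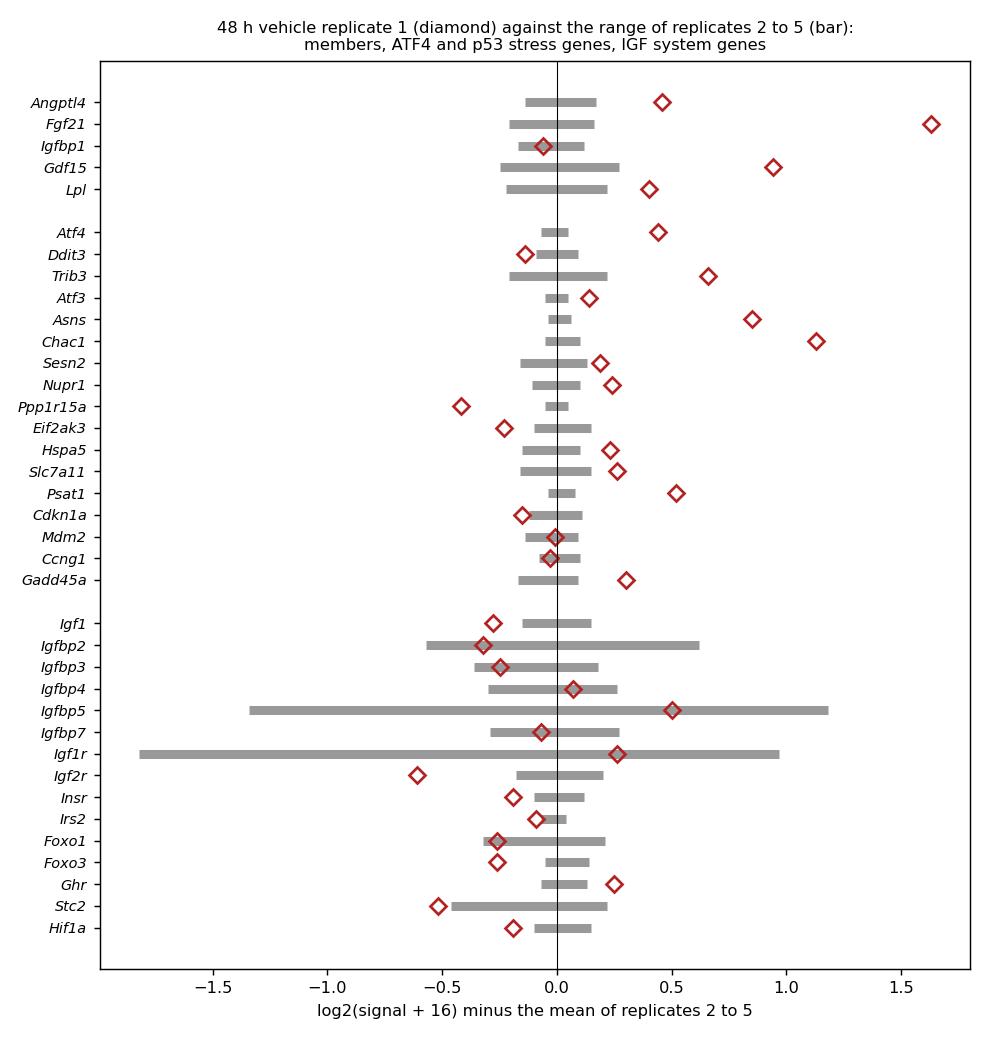
Vehicle 48 h replicate 1 (red diamonds) against the range of replicates 2 to 5 (grey bars), as log2(signal + 16) minus the mean of replicates 2 to 5 (horizontal axis), for the 5 members, 17 ATF4 and p53 stress genes and 15 genes of the IGF system (vertical axis, in 3 blocks). Fgf21 lies at 1.63 and Gdf15 at 0.94, Igfbp1 lies within its bar, and the stress genes lie on both sides of theirs.

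Igfbp1 was lower in all 4 DINP groups, with changes between -19.7% and -27.6% of the vehicle level. It encodes a protein that binds insulin-like growth factors in blood and that rises in fasting. Its probe set was among the brightest, with 0.364% of probe sets at a higher mean signal. Whether signals this high follow the RNA in proportion was not tested. At 24 h its signal was 85143, 84959, 90217, 89765 and 90098 in the vehicle. It was 70545, 68188, 70583, 78079 and 66073 at 25 mM and 74586, 64322, 71795, 75586 and 67734 at 100 mM. Every DINP array lay below every vehicle array.

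At 48 h the vehicle arrays read 92100, 99875, 85486, 96035 and 104226 for Igfbp1. The 25 mM arrays read 72805, 74671, 72947, 60152 and 65792, and the 100 mM arrays 71225, 81265, 68938, 70734 and 70595. The groups again did not overlap, and vehicle replicate 1 was no outlier here.

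The Igfbp1 difference was -0.32 ± 0.06 at 25 mM and 24 h (-19.8%, adjusted p = 0.000241) and -0.32 ± 0.06 at 100 mM and 24 h (-19.7%, adjusted p = 0.000305). It was -0.47 ± 0.06 at 25 mM and 48 h (-27.6%, adjusted p = 4.49e-07) and -0.40 ± 0.06 at 100 mM and 48 h (-24%, adjusted p = 9.41e-06). The doses differed by 0.00 ± 0.06 at 24 h (interval -0.12 to 0.12) and 0.07 ± 0.06 at 48 h (interval -0.05 to 0.19). The 48 h effect minus the 24 h effect was -0.15 ± 0.08 at 25 mM (interval -0.32 to 0.03) and -0.08 ± 0.08 at 100 mM (interval -0.25 to 0.09). In order the vehicle groups stood highest (95544 ± 7201 at 48 h and 88036 ± 2731 at 24 h, SD), and the 4 DINP groups (69273 to 72551) overlapped one another.

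The promoter window of Igfbp1 holds a forkhead-type match 121 to 115 bases before the start, shown because FOXO1 is known to act on this gene (chr14:86261116-86261202, plus strand, GRCr8). CAAAACA is in 6.28% of all promoters of the table.
Igfbp1: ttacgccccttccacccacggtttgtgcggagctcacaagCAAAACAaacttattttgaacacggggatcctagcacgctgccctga

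Gdf15, a stress hormone of the TGF-beta family that lowers appetite through a brainstem receptor, was not called in any comparison. At 24 h the vehicle arrays read 486, 402, 286, 412 and 344. The 25 mM arrays read 419, 450, 402, 617 and 437, and the 100 mM arrays 619, 396, 329, 615 and 424. The groups overlapped, with 1 array at 25 mM and 2 at 100 mM above the highest vehicle array.

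At 48 h Gdf15 read 738, 314, 357, 388 and 459 in the vehicle. It read 546, 484, 513, 516 and 442 at 25 mM and 549, 405, 420, 463 and 403 at 100 mM. As for Fgf21, vehicle replicate 1 was the highest of all arrays, at 1.95 times the mean of the other 4. Set against those 4 alone, 4 of 5 arrays at 25 mM and 2 of 5 at 100 mM were higher.

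The Gdf15 differences were 0.26 ± 0.19 (adjusted p = 0.444) and 0.27 ± 0.19 (adjusted p = 0.425) at 24 h, for 25 and 100 mM. They were 0.20 ± 0.19 (interval -0.19 to 0.60) and 0.04 ± 0.19 (interval -0.35 to 0.44) at 48 h. Leaving out vehicle 48 h replicate 1 changed the latter to 0.39 ± 0.18 (adjusted p = 0.145) and 0.23 ± 0.18 (adjusted p = 0.445). The group means ran from 386 ± 75 (SD) in the vehicle at 24 h to 500 ± 39 at 25 mM and 48 h, and all 6 groups overlapped. Its mean log2 of 8.85 was near the lowest mean tested, 7.956.

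RefSeq gives Gdf15 2 starts in this table. The window of the one at chr16:18838186-18838485 holds the only PPAR-type direct repeat found in the windows of the 4 members that had one, 72 to 60 bases before the start (chr16:18838324-18838416, plus strand, GRCr8). It is shown because 0.415% of all promoters, 139 of 33469, hold one and the gene was not called. The other window holds TATAAA and no repeat.
Gdf15: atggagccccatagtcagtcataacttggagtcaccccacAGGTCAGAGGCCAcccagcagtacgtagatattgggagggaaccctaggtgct

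Lpl, the enzyme that frees fatty acids from circulating triglycerides and that adult liver makes little of, was not called either. At 24 h it read 328, 374, 310, 372 and 349 in the vehicle. It read 393, 358, 553, 302 and 340 at 25 mM and 501, 386, 300, 391 and 368 at 100 mM. The groups overlapped, and at each dose 1 array lay below the lowest vehicle array.

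At 48 h Lpl read 445, 392, 304, 361 and 285 in the vehicle. It read 402, 493, 451, 376 and 583 at 25 mM and 573, 435, 378, 442 and 502 at 100 mM. Above the highest vehicle array, which was replicate 1, lay 3 arrays at 25 mM and 2 at 100 mM, and no DINP array lay below the lowest. The promoter of Lpl was not analysed here.

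The Lpl differences were 0.13 ± 0.17 (interval -0.22 to 0.48) and 0.15 ± 0.17 (interval -0.20 to 0.50) at 24 h, for 25 and 100 mM. At 48 h they were 0.35 ± 0.17 (1.28-fold, interval 0.00 to 0.70, adjusted p = 0.169) and 0.37 ± 0.17 (1.29-fold, interval 0.02 to 0.72, adjusted p = 0.154). Without vehicle 48 h replicate 1 the 48 h values were 0.43 ± 0.18 (adjusted p = 0.0944) and 0.45 ± 0.18 (adjusted p = 0.0897). The order of means, from 347 ± 28 (SD) in the vehicle at 24 h to 466 ± 74 at 100 mM and 48 h, again held only overlapping neighbours. The mean log2 of Lpl, 8.68, was also near the lowest mean tested, 7.956.

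Fat cells and macrophages also express Lpl, and their markers are given beside it. The summed signal of 6 fat cell markers ran from 6903 to 9495 on the vehicle arrays at 48 h, from 8617 to 10798 at 25 mM and from 9787 to 10904 at 100 mM. Of 4 tested fat cell markers Cidec, which coats lipid droplets, was higher in all 4 comparisons and Fabp4 at 100 mM and 48 h (0.72 ± 0.16, adjusted p = 0.00191). The summed signal of 10 macrophage markers at 48 h ran from 28456 to 31013 in the vehicle, 31917 to 36960 at 25 mM and 33841 to 35115 at 100 mM, and 2 of 7 tested markers, Cd14 and C1qb, were higher at both doses. Lyz2 was lower at 25 mM. In the vehicle at 48 h Cd14 read 16187 to 18720 and Lyz2 9006 to 10372, which made up most of the macrophage sum. Cidec read 4961 to 8116 there, most of the fat cell sum. The sums therefore follow these bright genes and do not stand for the marker lists as a whole. The count of higher macrophage markers at 25 mM fell to 1 without vehicle 48 h replicate 3 or 25 mM 48 h replicate 3, and that of fat cell markers rose from 1 to 2 without vehicle 48 h replicate 3 or 25 mM 48 h replicate 2. The part of these cells in the Lpl or Angptl4 values was not tested. Adipoq and Lep of fat cells and Cd163, Ptprc and Adgre1 of macrophages were below the dimmest tested mean. The other 4 of 6 and 7 of 10 markers, among them Plin1, Pparg, Clec4f and Csf1r, were bright enough to test.

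The genes around each member were read from lists of partners and related genes. Over all 10604 genes the shares called higher and lower, in the order 25 mM and 100 mM at 24 h and then at 48 h, were 7.87% and 7.84%, 7.54% and 7.02%, 9.78% and 12.1%, and 8.69% and 9.2%. The medians over all genes were -0.02, -0.03, -0.03 and -0.06 on the log2 scale. Of all called probe sets 43.9%, 45.1%, 41.4% and 44.6% were higher. Median centring of the arrays made these shares 65.2%, 70.8%, 40.6% and 75.1% and the medians 0.05, 0.05, -0.03 and 0.04. Quantile normalisation made the shares 48.8%, 51%, 46.4% and 51.7%.

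Of 20 tested genes listed around Angptl4 and lipoprotein lipase, 5, 5, 6 and 6 were higher in that order and 2, 2, 1 and 1 lower (median differences 0.11, 0.09, 0.09 and 0.13). The list also holds other genes of lipid breakdown, such as Lipa and Hilpda, so these counts are not counts of partners of the lipase alone. Hilpda, an inhibitor of triglyceride breakdown in lipid droplets, rose by 1.86 ± 0.11, 1.66 ± 0.11, 1.40 ± 0.11 and 1.55 ± 0.11. Angptl8, the insulin-responsive partner of the family, rose by 0.93, 0.85, 0.73 and 0.84 (each ± 0.09, highest adjusted p = 3.17e-07). The lysosomal lipase Lipa rose by 0.85, 0.72, 0.78 and 0.70 (each ± 0.07, highest adjusted p = 9.25e-10).

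Apoa5, an apolipoprotein that aids lipoprotein lipase, fell by 0.48, 0.31, 0.68 and 0.53 (each ± 0.06, highest adjusted p = 0.000325). Median centring of the arrays ended the call at 100 mM and 24 h (-0.232, adjusted p = 0.0787). Gpihbp1, which carries the lipase across the capillary wall, Lmf1, which folds it, the hepatic lipase Lipc, the lipase inhibitor Apoc3 and the lipoprotein receptor Vldlr were not called in any of the 4 comparisons. The widest error was that of Gpihbp1 (0.73 ± 0.49 at 25 mM and 48 h). With 1 array left out at a time the higher count ranged from 4 to 7 over the 4 comparisons. The lower count at 24 h dropped to 1 without vehicle 24 h replicate 4 or 5, 25 mM replicate 4, or 100 mM replicate 2 or 5, each of which ended the call of Pcsk6.

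Of 16 tested genes listed around FGF21, 2, 1, 2 and 1 were higher and 5, 5, 3 and 3 lower (medians -0.12, -0.03, 0.01 and -0.09). The list also holds the protease Fap and genes such as Egr1, Dusp6 and Spry4. These counts are therefore not counts of receptors and regulators alone, and Egr1 was among the lower genes at both doses at 24 h. Creb3l3, a liver transcription factor that induces Fgf21 together with PPAR alpha, rose by 1.28, 1.22, 1.32 and 1.29 (each ± 0.07, highest adjusted p = 5.56e-15). Ppargc1a, a coactivator of fasting genes, fell by 0.75, 0.54, 0.72 and 0.69 (each ± 0.13, highest adjusted p = 0.00331). With all arrays Creb3l3 was called in all 4 comparisons, and Fgf21 was called in none of them. Without vehicle 48 h replicate 1 Fgf21 was called at 25 mM at both times, as given above.

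Fgfr4, the main FGF receptor of hepatocytes, was lower at 24 h by -0.77 ± 0.22 at 25 mM (adjusted p = 0.0156) and -0.68 ± 0.22 at 100 mM (adjusted p = 0.0375). The call at 25 mM ended without vehicle 24 h replicate 1, or 25 mM 24 h replicate 4 or 5 (highest adjusted p = 0.0671). The call at 100 mM ended without vehicle 24 h replicate 1, 2 or 4, or 100 mM 24 h replicate 2, 3 or 5 (highest adjusted p = 0.121). It also ended with no filter (adjusted p = 0.0643), median centring (0.0606), quantile normalisation (0.0628) and no variance trend (0.0511). At 100 mM and 48 h Fgfr4 stood at -0.61 ± 0.22 (adjusted p = 0.0591). It passed there with the 60th percentile filter (0.0419), the compared groups alone (0.022) or array weights (0.0479), and without 25 mM 24 h replicate 1 (0.0339) or 100 mM 48 h replicate 2 (0.0282). The count of lower genes at 100 mM and 24 h fell from 5 to 3 without vehicle 24 h replicate 2, 4 or 5 or 100 mM replicate 3 or 4. It fell to 2 without vehicle 24 h replicate 1 or 100 mM replicate 2 or 5. At 25 mM and 48 h it fell from 3 to 1 without 25 mM 48 h replicate 5 and to 2 without vehicle 48 h replicate 1. The count of higher genes moved from 1 to 2 at 100 mM and 24 h without vehicle 24 h replicate 1, and from 2 to 1 at 25 mM and 48 h without vehicle 48 h replicate 2 or 3. Ppara itself was below the dimmest tested mean (mean log2 7.13), and Klb, the co-receptor, was not analysed here.

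Few genes of the IGF system around Igfbp1 were called. Of 15 tested genes 0, 0, 1 and 1 were higher and 1, 1, 2 and 1 lower (medians -0.17, -0.15, -0.18 and -0.16), counts that hang on single arrays. At 25 mM and 24 h the lower count fell to 0 without vehicle 24 h replicate 1, 2, 3 or 4, 25 mM 24 h replicate 1, 3, 4 or 5, 100 mM 24 h replicate 2 or 3, 25 mM 48 h replicate 2, or 100 mM 48 h replicate 3 or 4. There the higher count rose to 1 without vehicle 24 h replicate 3 or 4, 100 mM 24 h replicate 3 or 100 mM 48 h replicate 5. At 100 mM and 24 h the lower count fell to 0 without vehicle 24 h replicate 1 or 3 or 100 mM 24 h replicate 1, 3 or 5. At 100 mM and 48 h it fell to 0 without vehicle 48 h replicate 3 or 4 or 100 mM 48 h replicate 4 and rose to 2 without vehicle 48 h replicate 1. At 25 mM and 48 h 0 genes were higher and 3 lower without vehicle 48 h replicate 1. Igf1 stood at 0.19 ± 0.06 at both doses at 48 h (adjusted p = 0.0263 and 0.0302). Both calls ended without vehicle 48 h replicate 1, 4 or 5 (highest adjusted p = 0.108 and 0.117). They also ended without 25 mM 48 h replicate 1 or 5 and without 100 mM 48 h replicate 1, 2, 4 or 5, each for its own dose. Quantile normalisation brought the differences to 0.112 and 0.0995 (adjusted p = 0.315 and 0.43). The calls ended as well with no variance trend (0.0577 and 0.0647), the compared groups alone (0.101 and 0.102) and array weights (0.0653 and 0.0599). Median centring ended that at 25 mM (0.065) and no filter that at 100 mM (0.0564).

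Igfbp3, the main carrier of IGF in blood, was at -1.12 ± 0.37 at 25 mM and 48 h (adjusted p = 0.0313), a call that ended without vehicle 48 h replicate 2, 4 or 5 or 25 mM 48 h replicate 1 or 2 (highest adjusted p = 0.134). It also ended with no filter (0.0544) and with the compared groups alone (0.0525). Foxo1, which drives Igfbp1, was not called (-0.39 ± 0.18, -0.41 ± 0.18, -0.30 ± 0.18 and -0.22 ± 0.18). Irs2, the insulin receptor substrate that FOXO1 also drives, was not called either (-0.26, -0.21, -0.30 and -0.24, each ± 0.12), but passed at 25 mM and 48 h without 25 mM 48 h replicate 1 (adjusted p = 0.0266). Igfbp2 was not called, with an error of 0.45, but passed at 25 mM and 48 h with the compared groups alone (-0.961, adjusted p = 0.0484).

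Of 17 tested ATF4 and p53 stress genes 0, 1, 0 and 0 were higher and 2, 3, 8 and 6 lower (medians 0.02, -0.05, -0.30 and -0.21). With vehicle 48 h replicate 1 left out, 8 were lower at 25 mM and 48 h and 4 at 100 mM and 48 h, with medians of -0.21 and -0.15. At 25 mM and 24 h the lower count fell to 1 without 25 mM 24 h replicate 4. The higher count there rose to 2 without vehicle 48 h replicate 1 or 25 mM 24 h replicate 1. It rose to 1 without vehicle 24 h replicate 3, 25 mM 24 h replicate 5, vehicle 48 h replicate 5, 25 mM 48 h replicate 2, or 100 mM 48 h replicate 1 or 3. The 1 higher gene at 100 mM and 24 h was lost without vehicle 24 h replicate 1, 2, 4 or 5 or 100 mM 24 h replicate 1, 2 or 4. The cystine carrier Slc7a11 fell by 0.82 ± 0.11 and 0.76 ± 0.11 at 48 h, the stress factor Nupr1 by 0.66 ± 0.06 and 0.51 ± 0.06, and the p53 target Ccng1 by 0.60 ± 0.08 and 0.55 ± 0.08.

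Atf4 was at -0.30 ± 0.07 (adjusted p = 0.00201) and -0.24 ± 0.07 (adjusted p = 0.0183) at 48 h. The second call ended without vehicle 48 h replicate 1 (-0.149, adjusted p = 0.0816) or 100 mM 48 h replicate 1 (-0.218, adjusted p = 0.0507), with median centring (-0.133, adjusted p = 0.424) and with the compared groups alone (adjusted p = 0.0735). Atf3 was lower at 25 mM and 48 h (-0.47 ± 0.13, adjusted p = 0.0102). At 100 mM it stood at -0.31 ± 0.13 at 24 h (adjusted p = 0.125) and -0.37 ± 0.13 at 48 h (adjusted p = 0.0601). With the round of array numbers as a block both passed (adjusted p = 0.0407 and 0.014). Without vehicle 24 h replicate 5 both passed too (0.042 and 0.0461). The value at 48 h also passed with the 60th percentile filter (0.0426) or the compared groups alone (0.0249), and without 100 mM 24 h replicate 5 (0.0268), 25 mM 48 h replicate 5 (0.049) or 100 mM 48 h replicate 3 (0.0462). Ddit3, Trib3, Asns and the p53 target Cdkn1a were not called in the 4 comparisons. Trib3 passed at 25 mM and 24 h without 25 mM 24 h replicate 1 (0.385, adjusted p = 0.031). Asns stood at 0.25 ± 0.11 at 25 mM and 24 h, and passed there without vehicle 48 h replicate 1 (adjusted p = 0.0169).

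**Figure D5:**
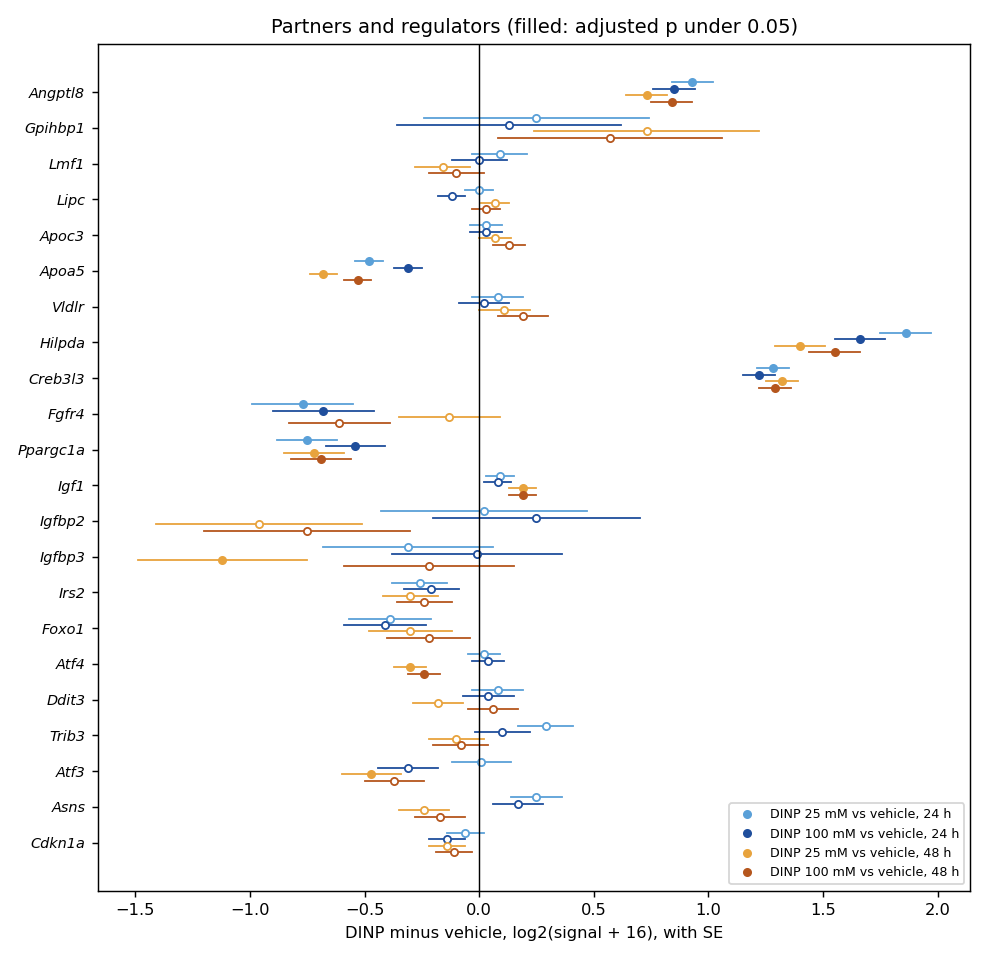
Difference from the vehicle on the log2(signal + 16) scale with limma's standard error (horizontal axis) for 22 partner and regulator genes (vertical axis) in the 4 comparisons of a dose with its vehicle; filled points have an adjusted p under 0.05. Hilpda, Creb3l3 and Angptl8 lie to the right of 0 and Apoa5 and Ppargc1a to the left in all 4.

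Of 22 tested genes listed as other secreted metabolic factors of hepatocytes, 2 were higher in each comparison and 4, 3, 7 and 6 lower (medians 0.02, -0.00, -0.11 and -0.07). The higher ones were Tsku, a secreted protein of the small leucine-rich family (0.43, 0.41, 0.82 and 0.65, each ± 0.09), and Retsat, a retinol saturase (0.86, 0.77, 1.14 and 1.06, each ± 0.04). Retsat is an enzyme that stays in the cell, so of the higher genes only Tsku is secreted. Among the lower genes were Fetub in all 4 comparisons and Ahsg and Lect2 at both doses at 48 h. At 48 h the calls of these genes held in all 30 fits without 1 array, and at 24 h those of Fetub did not. Without vehicle 48 h replicate 1 the lower counts at 48 h were 8 and 6, with partly other genes. The count of lower genes at 25 mM and 24 h fell to 2 without vehicle 24 h replicate 2, 3 or 5 or 25 mM 24 h replicate 2 or 3. Of 22 tested genes listed as fatty acid oxidation genes of the PPAR alpha type, 22, 22, 21 and 22 were higher (medians 1.26, 1.16, 1.26 and 1.21) and 0 lower. The list also holds genes outside fatty acid oxidation itself, such as Plin2, Pdk4 and Creb3l3. It was chosen with earlier results of these data known, so its counts and medians describe selected genes. Against these medians the differences of Angptl4 were larger in each comparison, and those of Fgf21 were smaller.

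Likeness was measured as Pearson's r of log2(signal + 16) over the 30 arrays, which share the dose and time groups, and carries no test. Closest to Angptl4 were Ech1 (0.99), an enzyme of fatty acid oxidation, the glycerol phosphate dehydrogenase Gpd1 (0.98), the fatty acid hydroxylase Cyp4a3 (0.98) and the carnitine carrier Slc25a20 (0.98). Closest to Fgf21 were Asns (0.81), the amino acid carrier subunit Slc3a2 (0.80), the proteasome subunit Psma5 (0.75) and the coat protein Sec13 (0.73). Over the other 29 arrays, without vehicle 48 h replicate 1, these were 0.75, 0.79, 0.70 and 0.76, and the closest gene was then C8g (0.86), a complement subunit.

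Closest to Igfbp1 were Ass1 (0.90), an enzyme of the urea cycle, Myadm (0.90), Hmgn1 (0.90) and Gucy2c (0.89). For Gdf15 the highest r was 0.66, with Mrps7 and Tmem41a, and for Lpl 0.70, with Cyp2a1. The pattern over the 30 arrays thus put Angptl4 beside genes of fatty acid oxidation and Fgf21 beside Asns. Asns was among the genes that, like Fgf21, stood apart on vehicle 48 h replicate 1. Once that array was left out, Asns (0.75) was no longer among the genes closest to Fgf21. These were then C8g (0.86), Abcg2 (0.82), Aass (0.82) and Pabpn1 (0.82). The place of Fgf21 beside Asns therefore rested in part on that array.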

How the data were processed

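Biotin-labelled RNA was hybridised to Affymetrix rat arrays, per the labels' protocols. The authors deposited linear intensities, for which MAS5 is named in the submitters' processing notes. The trimmed mean (2% off each end) lay between 1500.65 and 1500.76 on every array, so arrays had been scaled before deposit. From the 31099 probe sets 57 controls were dropped, log2(signal + 16) was taken, and the 18625 probe sets at or above the 40th percentile of mean log2 were tested. This scale understates changes of dim genes. Symbols came from the platform annotation and were updated through Entrez IDs for 20758 probe sets. Where a listed gene had several tested probe sets, the brightest was used.

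Tests used limma 3.58.1 in R 4.3.3: 1 fit of 6 groups, 24 residual degrees of freedom, empirical Bayes with a trend, Benjamini-Hochberg adjustment over all tested probe sets in each of 11 comparisons, threshold 0.05. The code was tested on simulated data. Alternatives were constants of 1 and 64, no filter or the 60th percentile, median centring, quantile normalisation, no trend, only the compared groups, array weights, the round of 6 successive numbers in the sample names as a block, and each array left out. The number of arrays limits the precision. Replicates are numbered in sample order, since the labels do not number them. Members, lists and named genes were chosen with earlier results of these data known.

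Named with values whatever they did were the 5 members, the 4 genes most like each, and fixed genes of each list. Other list members and cell markers named here were picked after their values were seen. Promoter sequences are RefSeq's for GRCr8; 4 of the 5 members had one.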

Additional observations from a re-analysis of the deposited data

Results flagged for a closer look

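Single arrays were compared with the other 4 of their group for the members and the named partners, by the gap to the nearest array over the group's range (Dixon's test). Of 162 groups examined 13 held such an array, where chance gives about 1 in 20. Among the members these were vehicle 48 h replicate 1 for Fgf21 (3256, others 902 to 1172), DINP 100 mM 48 h replicate 2 for Igfbp1 (81265, others 68938 to 71225) and DINP 25 mM 24 h replicate 4 for Gdf15 (617, others 402 to 450). The first was known when the genes were chosen, so its mark here repeats that and adds no evidence.

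On vehicle 48 h replicate 1 the same was seen for Asns (8704, others 4701 to 5018), Atf4 (33618, others 23570 to 25764) and, on the low side, Angptl8 (12244, others 15792 to 16535). The others were Lipc at 5242 on DINP 25 mM 48 h replicate 2, Hilpda at 9241, Foxo1 at 281 and Trib3 at 2646 on DINP 100 mM 48 h replicate 5, Irs2 at 1155 on vehicle 24 h replicate 2, Foxo1 at 527 on vehicle 24 h replicate 3 and Atf4 at 21341 on DINP 25 mM 24 h replicate 1. In tests of the difference of effects between 48 h and 24 h, limma called 0 of 54 for these genes, and 11 had an unadjusted p under 0.05. Over all 18625 tested probe sets 0.242% were called at 25 mM and 0.0644% at 100 mM. There the unadjusted p was under 0.05 for 1527 probe sets at 25 mM and 1165 at 100 mM.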

How the results depend on the processing

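For the 5 members and 11 comparisons (55 results), 10 other settings gave 528 values, of which 510 kept their direction and side of the threshold, 1 lost its call, 8 gained one and 9 changed sign. The calls of Angptl4 and Igfbp1 against the vehicle held in every setting and every fit without 1 array. Angptl4 then ran from 1.67 to 1.80, 1.67 to 1.81, 1.40 to 1.55 and 1.43 to 1.59, and Igfbp1 from -0.39 to -0.24, -0.38 to -0.23, -0.52 to -0.41 and -0.49 to -0.29 (25 and 100 mM at 24 h, then at 48 h). A fit of only the compared groups ended the rise of Angptl4 in the vehicle from 24 to 48 h (0.291, adjusted p = 0.088). It called Fgf21 at 24 h (0.377 and 0.331) and its fall from 24 to 48 h at 25 mM (-0.576) and 100 mM (-0.527). That fall was also called at 25 mM with the 60th percentile filter (-0.576), median centring (-0.638) and array weights (-0.601), and at 100 mM with array weights (-0.513). The cause was not tested, beyond the array left out in the report.

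None of the member values that changed sign was called. Between doses at 24 h, Angptl4 was at 0.0082 with median centring and 0.0087 with quantile normalisation, and with array weights Igfbp1 was at -0.000634, Gdf15 at -0.018 and Lpl at -0.02. From 24 to 48 h, Angptl4 at 25 mM was at -0.0382 with median centring, Igfbp1 at 100 mM at -0.027 with quantile normalisation and Lpl in the vehicle at -0.00216 with array weights. The effect of 25 mM on Gdf15 at 48 h minus 24 h was 0.0616 with array weights. Among partners against the vehicle, array weights gave Lmf1 -0.00992 (100 mM, 24 h) and, at 25 mM and 24 h, Lipc 0.0042, Igfbp2 -0.0159 and Atf3 -0.00208. Median centring gave Lmf1 0.00481 and Trib3 0.0221 (100 mM, 48 h), and Lipc 0.0741 and Cdkn1a 0.00998 (25 mM, 24 h). Quantile normalisation gave, at 24 h, Apoc3 -0.0159 and -0.0128, Igf1 -0.0126 and -0.0326 and Atf4 -0.0607 and -0.0444. A constant of 64 gave Igfbp2 -0.012 (25 mM, 24 h). Igfbp3 (100 mM, 24 h) was at 0.0751 with median centring, 0.0683 with quantile normalisation and 0.0032 with array weights.

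With 1 array left out, 1583 of 1650 member values kept their direction and side. The others lay in these ranges. For Angptl4 the doses differed by -0.0451 to 0.0513 at 24 h and -0.00497 to 0.0682 at 48 h, and 48 h minus 24 h was 0.199 to 0.349 in the vehicle and -0.0218 to 0.0746 at 25 mM. Fgf21 against the vehicle was at 0.298 to 0.449 (25 mM, 24 h), -0.095 to 0.364 (25 mM, 48 h) and -0.0906 to 0.368 (100 mM, 48 h). Its doses differed by -0.118 to 0.0332 and -0.0683 to 0.137, its effect of 100 mM between times by -0.422 to 0.0364, and its times by -0.563 to -0.105 in the vehicle, -0.708 to -0.498 at 25 mM and -0.599 to -0.468 at 100 mM. For Igfbp1 the doses at 24 h differed by -0.0223 to 0.0383 and the times by -0.0599 to 0.0181 (25 mM) and -0.0063 to 0.0594 (100 mM).

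Gdf15 at 100 mM and 48 h was at -0.0642 to 0.234, its doses at 24 h at -0.0935 to 0.126, its effect of 25 mM between times at -0.168 to 0.13, and its times at -0.0152 to 0.283 (vehicle) and -0.172 to 0.0484 (100 mM). For Lpl the doses differed by -0.0802 to 0.142 and -0.0565 to 0.106 and the vehicle times by -0.0531 to 0.101. Partners at 25 mM and 24 h ran from -0.0194 to 0.035 (Lipc), -0.000764 to 0.0717 (Apoc3), -0.435 to 0.27 (Igfbp2), -0.491 to 0.0767 (Igfbp3), -0.00507 to 0.0818 (Atf4), -0.0137 to 0.146 (Ddit3) and -0.0827 to 0.0971 (Atf3). At 100 mM and 24 h they ran from -0.0835 to 0.288 (Gpihbp1), -0.0467 to 0.0716 (Lmf1), -0.0374 to 0.068 (Vldlr), -0.209 to 0.507 (Igfbp2), -0.136 to 0.128 (Igfbp3) and -0.0206 to 0.0908 (Ddit3). At 48 h they ran from -0.041 to 0.183 (Vldlr, 25 mM), -0.184 to 0.0352 (Trib3, 25 mM), -0.0165 to 0.0808 (Lipc, 100 mM) and -0.169 to 0.0497 (Trib3, 100 mM).

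Counts over all probe sets moved by over 1.5 times only between doses and in the effects that differed between times. Between doses at 24 h, 2 were called, 1 with the 60th percentile filter and 0 with the compared groups alone. At 48 h 1 was called, 0 with no trend or the compared groups alone, 2 with the round block and 0 to 4 without 1 array. The effects that differed between times numbered 45 at 25 mM and 13 with median centring, and 12 at 100 mM, 24 with quantile normalisation, 25 with array weights and 10 to 21 without 1 array. The 60th percentile filter removed Gdf15 and Lpl, and a median over probe sets was not run because each member has 1. The labels do not number the replicates, but the sample names run in 5 rounds of 6 arrays, 1 of each group. With the round as a block no call of a member against the vehicle, between doses or between times changed, and of the named partners the calls of Atf3 did.

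With 5 wells a group of unknown donors, the intervals of Gdf15 and Lpl against the vehicle still allow rises of the size of the Igfbp1 falls. They do not reach falls of that size in the same comparison. The array has 1 probe set for each gene, so no second probe set checks it.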
